A study of Mus musculus with 6 samples.

Results

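The immunity-related GTPases examined here are 7 mouse genes, Irgm1, Irgm2, Igtp, Iigp1, Tgtp1, Tgtp2 and Ifi47, out of 54532 genes in the deposited tables. They were taken by symbol from a fixed list, and all 7 were found by their Ensembl identifiers. The tissue was cervical spinal cord, taken from C57BL/6 mice and studied by RNA sequencing. In the imiquimod group (3 samples), a psoriasis-like dermatitis was produced with 50 mg of 5% imiquimod cream, a Toll-like receptor 7 agonist, spread daily on the shaved nape on 2 days. The vehicle group (3 samples) had the same amount of vehicle cream on skin shaved in the same way. The labels give no genetic modification, sex or age. They do not say whether a sample is 1 mouse or a pool, nor that samples of a group came from separate mice, so p-values measure the spread between these samples, which may be technical.

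Immunity-related GTPases are interferon-induced, dynamin-like enzymes that gather on the membranes of vacuoles holding parasites or bacteria and help to break them. Mouse family members fall into regulators, named GMS proteins after a methionine in the nucleotide-binding loop, and effectors, named GKS proteins after the lysine that most GTPases carry there. Irgm1, Irgm2 and Igtp (also called Irgm3) are the regulators. They sit on the cell's own membranes and keep the effectors inactive there. Iigp1 (Irga6), the nearly identical copies Tgtp1 and Tgtp2 (Irgb6) and Ifi47 (Irgd) are effectors. Transcription of the family is known to be driven by interferon gamma, and also by type I interferons, through the promoter elements called GAS and ISRE.

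The loop that gives the subfamilies their names is shown first, as coding DNA from GENCODE M21 transcripts, because the results below are ordered by it. The motif was found in the longest open reading frame of all 7 genes, and the codon that separates regulators from effectors is in capitals. Iigp1 is not shown.
Irgm1, coding bases 247 to 270: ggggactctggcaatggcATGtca
Irgm2, coding bases 247 to 270: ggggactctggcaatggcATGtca
Igtp, coding bases 271 to 294: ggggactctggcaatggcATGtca
Tgtp1, coding bases 187 to 210: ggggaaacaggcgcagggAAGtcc
Ifi47, coding bases 241 to 264: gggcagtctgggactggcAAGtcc

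The 3 regulators had the same 24 bases here, with the methionine codon, and the effectors had a lysine codon. Over whole coding sequences, the regulators were 69.4% to 74.6% identical to each other. Tgtp1 and Tgtp2 were identical at 1241 of 1245 coding bases. Of the 100-base windows of the main Tgtp1 transcript, 80.0% occurred unchanged in Tgtp2 transcripts. Irgm1 and Iigp1 shared no such window with another gene, and Igtp shared 5.67% of its windows with Irgm2, whose exons it overlaps on chromosome 11.

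Some of the genes also share a promoter arrangement, which is shown because members with and without it can be compared with their levels. RefSeq promoter windows on GRCm38.p6, from 250 bases before to 50 bases after each start, were held for 6 of the 7 members. They were searched on both strands for a GAS-like motif, TTCNNNGAA, and an ISRE-like motif, a pair of GAAA runs with any 2 bases between them. In 4 windows the GAS-like motif was followed after 2 bases by the ISRE-like motif. Both motifs are in capitals.
Irgm2, chr11:58214898-58214926, plus strand: ccatTTCCAGGAActGAAACTGAAAgctg
Igtp, chr11:58199507-58199535, plus strand: ccatTTCTAGGAActGAAACTGAAAgctg
Tgtp1, chr11:48992310-48992338, minus strand: ccatTTCCAGGAAtcGAAACTGAAAccta
Tgtp2, chr11:49064269-49064297, minus strand: ccatTTCCAGGAAtcGAAACCGAAAccta

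Of all 32851 promoter windows in the table, 8.3% held the GAS-like motif, 3.44% the ISRE-like motif and 0.0152% the joined arrangement. The last share is 5 windows, these 4 and that of Gm12185, a gene of the same chromosome 11 cluster. The joined arrangement was not in the first plan, and its spacing is the one these windows share. Its share among all windows is therefore a description and no test. The stretches shown for Irgm2 and Igtp are nearly the same sequence, as are those for Tgtp1 and Tgtp2, so they are not separate cases. The joined arrangement began 75 bases before the start of Irgm2, 45 before that of Igtp, 88 before that of Tgtp1 and 81 before that of Tgtp2. Irgm1 had no GAS-like match in its window but 2 overlapping ISRE-like matches, the first beginning 30 bases before the start. The window of Ifi47 held neither motif, and it covers only 1 annotated start of that gene. The other members also had 1 window each. Those of Irgm2 and Tgtp1 lie inside the annotated span of the gene, away from its outermost start. These are matches of letters and say nothing of binding. The whole windows of Irgm1, with the ISRE-like pair, and of Igtp, with the joined arrangement, read as follows.
Irgm1, chr11:48871371-48871670, minus strand: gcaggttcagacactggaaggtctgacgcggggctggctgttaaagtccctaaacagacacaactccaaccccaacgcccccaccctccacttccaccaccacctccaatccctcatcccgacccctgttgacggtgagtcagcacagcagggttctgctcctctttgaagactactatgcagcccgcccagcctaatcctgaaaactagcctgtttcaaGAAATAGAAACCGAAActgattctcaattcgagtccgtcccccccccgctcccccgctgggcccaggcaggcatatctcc
Igtp, chr11:58199306-58199605, plus strand: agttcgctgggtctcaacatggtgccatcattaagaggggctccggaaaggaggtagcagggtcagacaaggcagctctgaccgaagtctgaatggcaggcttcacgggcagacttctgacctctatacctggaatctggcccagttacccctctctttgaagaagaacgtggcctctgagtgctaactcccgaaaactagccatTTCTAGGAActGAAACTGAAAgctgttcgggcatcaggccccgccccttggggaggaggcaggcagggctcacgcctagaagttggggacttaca

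**Figure D1:**
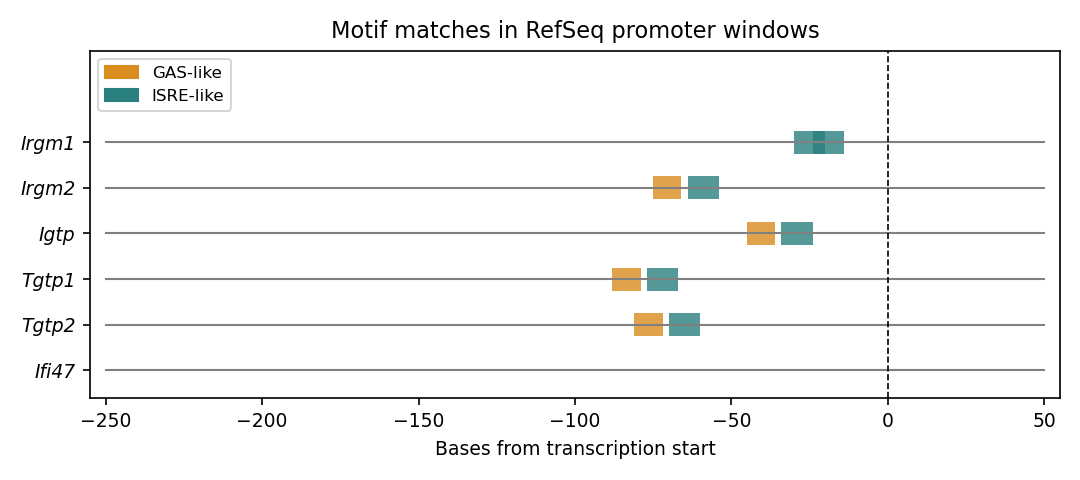
Motif matches in the RefSeq promoter windows of 6 members, plotted by distance in bases from the annotated transcription start (dashed line). Boxes are GAS-like (orange) and ISRE-like (teal) matches. Irgm2, Igtp, Tgtp1 and Tgtp2 have the same order and spacing, Irgm1 has 2 overlapping ISRE-like matches and Ifi47 has none.

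The deposited values are FPKM, fragments per kilobase of exon scaled to the size of the library, so levels compared between genes depend on the exon length of each. The recovered library totals were 21242413 to 23200994 fragments in imiquimod and 18174411 to 20672881 in vehicle cords. Neuron and oligodendrocyte markers were high in every library, with summed levels of 1001 to 1307 and 4862 to 6331 FPKM in imiquimod cords and 1393 to 1484 and 7503 to 8026 FPKM in vehicle cords. Hoxa5, of cervical segments, was at 26.3 to 33.5 FPKM in imiquimod and 26.9 to 31.7 FPKM in vehicle cords, and the lumbar gene Hoxd10 was listed at 0 throughout. Ddx3y, of the Y chromosome, was at 12.5 to 15.1 FPKM in imiquimod and 15.2 to 15.5 FPKM in vehicle cords. Gapdh, which has many pseudogene copies, was at 26.4 FPKM in imiquimod replicate 3, at 2.08 and 1.57 FPKM in the other imiquimod libraries and at 1.56 to 2.15 FPKM in vehicle libraries. No other gene in a list of 12 multi-copy genes had such a jump in that library. Eef1a1, for example, was at 757 FPKM there and at 854 and 700 FPKM in the other imiquimod libraries. As a precaution that rests on Gapdh alone, the copies Tgtp1 and Tgtp2 are also given without that library.

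Most members, 5 of 7, rose in imiquimod cords and the pair Tgtp1 and Tgtp2 did not pass. All 7 would have passed the filter on low values (a mean of 0.5 FPKM in either group) by their vehicle mean alone. The test was limma on log2(FPKM + 0.1) over 16513 genes, with Benjamini-Hochberg adjustment and a threshold of 0.05. By that rule 5 of 7 members were higher and 0 lower, where 8.74% of all genes tested were higher and 5.34% lower. In the same 5 members every imiquimod library lay above every vehicle library, as in 19.8% of all genes tested. The median log2 change was 2.17 over the members and -0.01 over all genes tested. The calls, like the levels, come from whole tissue, in which more cells of a type and more RNA per cell cannot be told apart.

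The regulators are given first, with gene positions on mm10. Igtp (ENSMUSG00000078853, chr11:58199556-58207591, plus strand) guards endoplasmic reticulum and lipid droplet membranes. It was at 62.3, 32.7 and 49.1 FPKM in imiquimod cords and at 6.87, 10.3 and 4.70 FPKM in vehicle cords. By FPKM over joined exon length, Igtp was the highest of the 7 in all 6 libraries, and its groups did not overlap. The means were 48.0 ± 14.8 FPKM in imiquimod and 7.28 ± 2.81 FPKM in vehicle cords (SD, n = 3 each). Igtp rose by 2.73 ± 0.32 on the log2(FPKM + 0.1) scale (± SE, limma adjusted p = 0.0037).

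Irgm1 (ENSMUSG00000046879, chr11:48861968-48871683, minus strand) acts at the Golgi and on lysosomal and autophagic membranes. It was at 35.4, 22.2 and 31.5 FPKM in imiquimod cords and at 2.95, 4.97 and 3.19 FPKM in vehicle cords. Its lowest imiquimod value was 4.47 times its highest vehicle value, the widest gap of the 7 genes. With means of 29.7 ± 6.77 FPKM in imiquimod and 3.70 ± 1.11 FPKM in vehicle cords it had a log2 change of 2.98 ± 0.24 (limma adjusted p = 0.00106), the highest estimate of the 7 but within its SE of that of Iigp1.

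Irgm2 (ENSMUSG00000069874, chr11:58199618-58222782, plus strand) is the other regulator, found at the Golgi. It was at 19.4, 9.91 and 18.9 FPKM in imiquimod cords and at 3.69, 6.22 and 3.48 FPKM in vehicle cords, and the lowest imiquimod value was 1.59 times the highest vehicle value. The log2 change was 1.81 ± 0.31 (limma adjusted p = 0.0133). The call ended without vehicle replicate 1 (adjusted p = 0.0568) or vehicle replicate 3 (0.0531). The annotation places 162 bases, 4.39% of the exon length of Irgm2, inside Igtp exons on the same strand.

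Among the effectors, Iigp1 (ENSMUSG00000054072, chr18:60376027-60392634, plus strand) is known for coating parasite vacuoles early. It was at 34.2, 17.98 and 31.7 FPKM in imiquimod cords and at 3.22, 4.70 and 2.61 FPKM in vehicle cords. Its means were 27.95 ± 8.73 FPKM in imiquimod and 3.51 ± 1.08 FPKM in vehicle cords, and it rose by 2.95 ± 0.29 on the log2 scale (limma adjusted p = 0.00217). Ifi47 (ENSMUSG00000078920, chr11:49076587-49096974, plus strand) was at 12.6, 6.94 and 12.4 FPKM in imiquimod cords and at 2.24, 2.30 and 2.09 FPKM in vehicle cords. Its vehicle libraries were the closest together of the 7 genes, the SD being 3.21 FPKM in imiquimod and 0.11 FPKM in vehicle cords. Ifi47 rose by 2.17 ± 0.22 (limma adjusted p = 0.00249).

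Tgtp1 and Tgtp2 were the lowest members in every library and their groups overlapped. Tgtp1 (ENSMUSG00000078922, chr11:48985327-48994172, minus strand) was at 2.47, 0.586 and 3.39 FPKM in imiquimod cords and at 0.406, 1.04 and 0.415 FPKM in vehicle cords. Tgtp2 (ENSMUSG00000078921, chr11:49057194-49064206, minus strand) was at 4.99, 1.83 and 4.73 FPKM in imiquimod cords and at 1.54, 1.84 and 0.348 FPKM in vehicle cords. In both genes imiquimod replicate 2 lay below vehicle replicate 2, while the other imiquimod libraries lay above all vehicle libraries. The log2 changes were 1.46 ± 0.63 for Tgtp1 (limma adjusted p = 0.176) and 1.68 ± 0.62 for Tgtp2 (limma adjusted p = 0.119). Tgtp1 passed without imiquimod replicate 2 (2.17, adjusted p = 0.0182), and Tgtp2 did not (2.14, adjusted p = 0.0646). The values rest on 460 recovered fragments in imiquimod and 107 in vehicle libraries for Tgtp1, and on 748 in imiquimod and 194 in vehicle libraries for Tgtp2. How reads that match both copies were counted is not given in the sources used here. The ratio of Tgtp2 to Tgtp1 was 2.02, 3.12 and 1.40 in imiquimod cords and 3.79, 1.77 and 0.839 in vehicle cords, so the groups overlapped. Without imiquimod replicate 3 the log2 changes were 0.99 for Tgtp1 (limma adjusted p = 0.373) and 1.48 for Tgtp2 (limma adjusted p = 0.257).

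**Figure D2:**
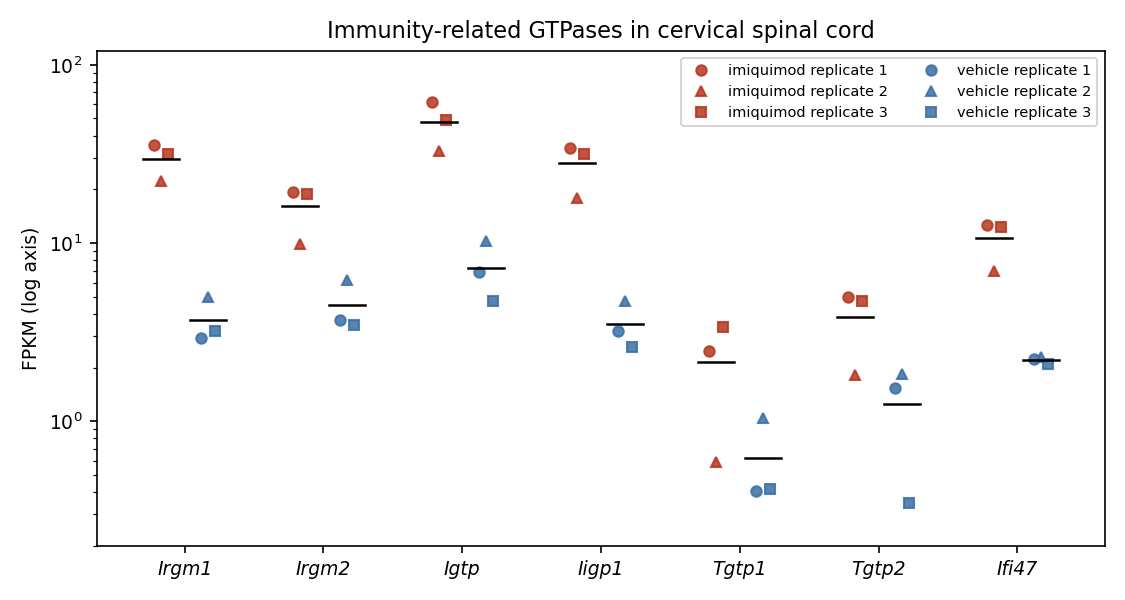
FPKM of each member in each library on a log axis, imiquimod in red and vehicle in blue, with a marker shape for each replicate number and a bar at the group mean. Imiquimod replicate 2 (triangle) is the lowest imiquimod library for all 7 genes, and the groups overlap for Tgtp1 and Tgtp2 alone.

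By FPKM over joined exon length, the order of levels changed among the middle members. In imiquimod cords Irgm2 was at rank 4 in all 3 libraries, below Irgm1 and Iigp1. In vehicle cords it was at rank 2 in all 3, above both. That place of Irgm2, like the top rank of Igtp, depends on the exon lengths, which for Irgm1 and Iigp1 are far above those of their main transcripts. Irgm1 and Iigp1 swapped places between libraries of 1 group (means 29.7 and 27.95 FPKM in imiquimod, 3.70 and 3.51 FPKM in vehicle), so their order is not settled in either group. Ifi47 came next below these, at rank 5, in all 6 libraries. Of neighbours in the order of means, the ranges of Ifi47 and Tgtp2 did not overlap in imiquimod cords, and those of Iigp1 and Ifi47 and of Ifi47 and Tgtp2 did not overlap in vehicle cords. All other neighbours overlapped. Irgm2 took 11.3%, 10.8% and 12.4% of the summed FPKM of the 7 genes in imiquimod cords and 17.6%, 19.8% and 20.7% in vehicle cords. Iigp1 took 20.0%, 19.5% and 20.9% in imiquimod and 15.4%, 14.99% and 15.5% in vehicle cords.

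Ratios between members within a library give the same comparison without library scaling. Whether a ratio is above 1 depends on the exon lengths used, but its change between groups does not. Irgm1 stood at 1.83, 2.24 and 1.67 times Irgm2 in imiquimod cords and at 0.799, 0.799 and 0.916 times in vehicle cords. The difference in mean log2 ratio was 1.18 (exact permutation p = 0.1, two-sided, which is the lowest value possible with 3 samples per group, and 0.2625 after Benjamini-Hochberg adjustment over 21 pairs). Irgm2 stood at 0.567, 0.551 and 0.596 times Iigp1 in imiquimod cords and at 1.15, 1.32 and 1.34 times in vehicle cords, a difference of -1.15 (same p and adjusted p). Against this, Irgm1 over Iigp1 was 1.04, 1.24 and 0.995 in imiquimod cords and 0.914, 1.06 and 1.22 in vehicle cords, a difference of 0.03 that is within the spread (exact permutation p = 0.9).

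**Figure D3:**
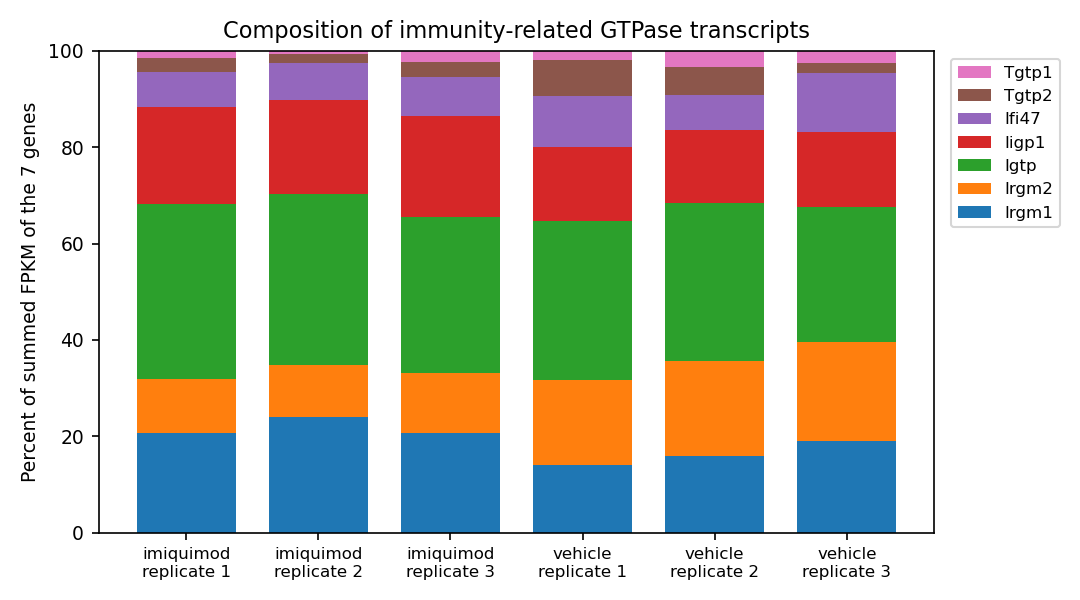
Share of each member in the summed FPKM of the 7 genes, 1 bar per library, imiquimod at the left. The Irgm2 segment is 10.8% to 12.4% in imiquimod and 17.6% to 20.7% in vehicle bars. Igtp is the largest segment in each, which depends on the joined exon lengths used.

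Replicates differed in a way the members shared. Imiquimod replicate 2 was the lowest imiquimod library for 7 of 7 members, at 0.2001 (Tgtp1) to 0.664 (Irgm1) of the mean of the other imiquimod libraries. Vehicle replicate 2 was the highest vehicle library for 7 of 7, at 1.06 (Ifi47) to 2.54 (Tgtp1) times the mean of the other vehicle libraries. Over all genes tested, the same libraries were lowest and highest for 33.2% and 34.5%. The summed FPKM of the 7 genes was 171, 92.2 and 152 in imiquimod cords and 20.9, 31.3 and 16.8 in vehicle cords. Other lists had the same library lowest within the imiquimod group. It was lowest for 9 of 9 guanylate-binding protein genes, 8 of 8 interferon gamma genes and 11 of 14 type I interferon genes. The same held for 17 of 21 interferon signalling genes, 8 of 9 T and NK cell markers, 5 of 6 monocyte markers and 5 of 5 border macrophage markers. In 0 of 7 microglia markers, 1 of 4 neutrophil markers and 1 of 6 red blood cell genes that library was the lowest. Vehicle replicate 2 was the highest vehicle library for 9 of 9 guanylate-binding protein genes and 14 of 14 type I interferon genes. It was highest for 4 of 8 interferon gamma genes, 13 of 21 signalling genes, 5 of 9 T and NK cell markers and 4 of 6 monocyte markers. Vehicle replicate 2 was also highest for 3 of 4 neutrophil and 3 of 5 border macrophage markers, but for 2 of 7 microglia markers and 1 of 6 red blood cell genes.

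Markers of blood-borne and resident cells moved with treatment in different directions. Of 14 T and NK cell markers, 9 were tested, 7 were higher and 0 lower in imiquimod cords, and 5 of the 7 (Trbc1, Klrb1c, Ncr1, Gzmb and Prf1) had passed the filter through the imiquimod libraries alone. All 14 listed markers summed to 50.1, 28.04 and 54.9 FPKM in imiquimod and 5.59, 6.98 and 5.27 FPKM in vehicle cords. Much of the imiquimod sum came from 2 granzyme genes. Gzma was at 21.1, 10.7 and 26.0 FPKM in imiquimod and 0.1685, 1.54 and 1.22 FPKM in vehicle cords. Gzmb was at 11.6, 4.86 and 11.3 FPKM in imiquimod and 0.118, 0.721 and 0.214 FPKM in vehicle cords. Monocyte markers, 4 of 6 higher (Ccr2 having passed the filter through the imiquimod libraries alone), summed to 67.7, 30.0 and 96.3 FPKM in imiquimod and 9.83, 22.0 and 16.1 FPKM in vehicle cords. Microglia markers, 2 of 7 higher, summed to 149, 149 and 114 FPKM in imiquimod and 90.1, 90.8 and 102 FPKM in vehicle cords. Endothelium markers, 4 of 6 higher and 1 lower, summed to 213 to 242 FPKM in imiquimod and 110.3 to 125.5 FPKM in vehicle cords. Neutrophil markers, 1 of 4 tested higher, summed to 26.8, 29.3 and 20.6 FPKM in imiquimod and 19.1, 66.04 and 24.5 FPKM in vehicle cords. Red blood cell genes, 0 of 6 called by limma, summed to 44.6 to 154.8 FPKM in imiquimod and 124.8 to 490.6 FPKM in vehicle cords, with a median log2 change of -1.76. Border macrophage markers were lower for 3 of 5 and higher for 0, and summed to 2.37, 1.19 and 5.65 FPKM in imiquimod and 6.71, 11.4 and 9.52 FPKM in vehicle cords. Of these 5, 3 passed the filter through the vehicle libraries alone, and the calls on Cd163, Pf4 and Mrc1 ended with no filter (adjusted p from 0.0577 to 0.0791). The T cell receptor genes Trac and Trbc2 were above the filter and did not pass the test. Trac was at 2.78 to 4.62 FPKM in imiquimod and 1.42 to 2.30 FPKM in vehicle cords, without overlap (limma adjusted p = 0.05005). Trbc2 was at 1.94 to 2.83 FPKM in imiquimod and 0.997 to 2.29 FPKM in vehicle cords (limma adjusted p = 0.187). The T cell genes Cd3d, Cd3e, Cd3g, Cd4 and Cd8a were low and under the filter. Cd3d (0.321 to 0.394 FPKM in imiquimod, 0.113 to 0.127 FPKM in vehicle cords), Cd3g (0.119 to 0.196 FPKM in imiquimod, 0 to 0.0691 FPKM in vehicle cords) and Cd8a (0.369 to 0.467 FPKM in imiquimod, 0.0141 to 0.109 FPKM in vehicle cords) did not overlap between groups, while Cd3e (0.0475 to 0.132 FPKM in imiquimod, 0.0416 to 0.0846 FPKM in vehicle cords) and Cd4 (0.074 to 0.132 FPKM in imiquimod, 0.038 to 0.112 FPKM in vehicle cords) did. The NK cell gene Ncr1 was at 0.349 to 0.941 FPKM in imiquimod cords, and in vehicle cords it was listed at 0 in replicates 1 and 3. The part of these cell types in the members' change was not tested.

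**Figure D4:**
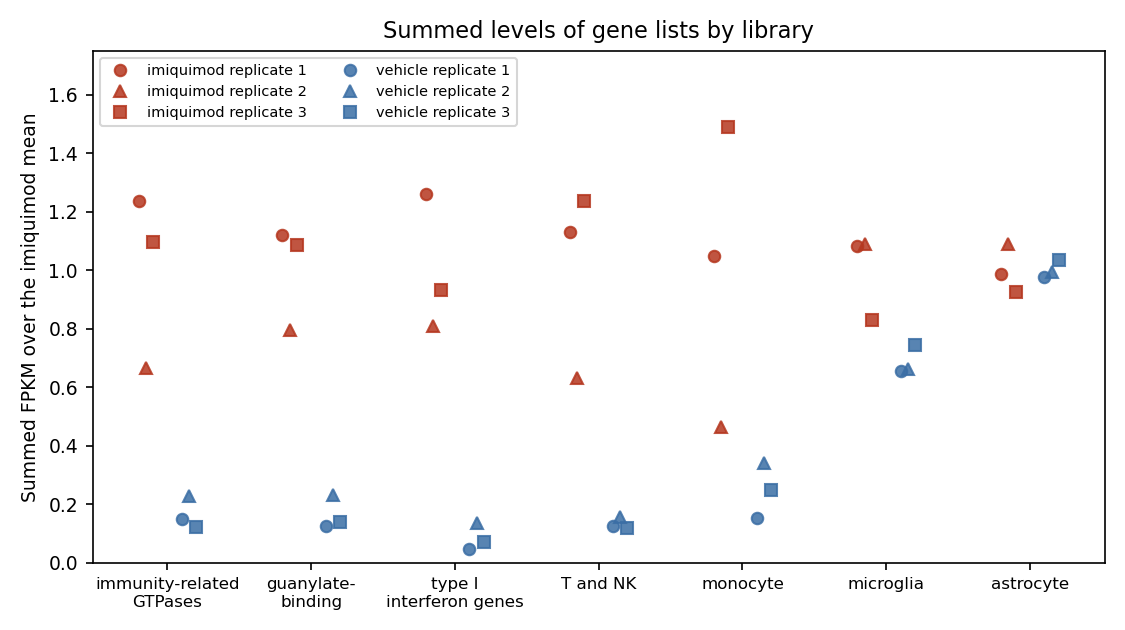
Summed FPKM of gene lists in each library, divided by the mean of the imiquimod libraries, imiquimod in red and vehicle in blue. For the immunity-related GTPases imiquimod replicate 2 lies lowest of the imiquimod libraries (92.2 FPKM, the others 171 and 152 FPKM). It is also lowest for guanylate-binding proteins, type I interferon genes, T and NK cell markers and monocyte markers, but not for microglia or astrocyte markers.

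Of the other family genes in the tables, 9 were found and 7 tested. Of those, 5 were higher and 0 lower. However, 3 of the 5 (Gm4841, F830016B08Rik and Gm5431) passed the filter through the imiquimod libraries alone, where they are high. The direction of their change was set by that. With no filter, Gm4841 (limma adjusted p = 0.00306) and F830016B08Rik (0.0216) were still called and Gm5431 (0.0696) was not. The other 2 of the 5 are Gm12250 and Gm4951. Gm12250, which encodes Irgb10, a GTPase known to act on bacterial membranes, was at 15.04, 8.21 and 12.4 FPKM in imiquimod cords and at 1.46, 0.903 and 0.562 FPKM in vehicle cords (3.52 ± 0.34, limma adjusted p = 0.002). Also 3 genes of the chromosome 18 cluster of Iigp1 rose. Gm4951 was at 6.80, 3.196 and 6.30 FPKM in imiquimod and at 0.812, 0.783 and 0.928 FPKM in vehicle cords (2.49 ± 0.28, limma adjusted p = 0.00314). Gm4841 rose by 3.25 ± 0.25 over a vehicle mean of 0.129 FPKM (20 fragments). F830016B08Rik rose by 2.81 ± 0.44 and was the called family gene in which imiquimod replicate 1, at 1.82 FPKM, was the lowest.

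On chromosome 11, Gm5431 rose by 1.61 ± 0.38 (limma adjusted p = 0.0368), a call that ended when replicate 1 or 3 of either treatment was left out (adjusted p from 0.104 to 0.119), and also with no filter (0.0696), with quality weights (0.0553) and with the replicate block (0.0912). 9930111J21Rik2 (0.43 ± 0.41) did not pass, and its copy 9930111J21Rik1, at 0.317 to 0.697 FPKM in imiquimod and 0.178 to 0.294 FPKM in vehicle cords, was under the filter. Of the main 9930111J21Rik1 transcript, 63.0% of the 100-base windows occurred in 9930111J21Rik2. Irgq, a distant relative on chromosome 7 that does not belong to the interferon-induced clusters, was at 12.9, 17.3 and 15.1 FPKM in imiquimod and at 16.4, 18.1 and 16.5 FPKM in vehicle cords (-0.18 ± 0.11, limma adjusted p = 0.315). Irgc1, known from testis, was at 0 to 0.0957 FPKM in imiquimod and 0.0202 to 0.0615 FPKM in vehicle cords. Gm12185, the other gene with the joined promoter arrangement, was under the filter, at 0.234, 0.176 and 0.328 FPKM in imiquimod and 0.0202, 0.0515 and 0.0458 FPKM in vehicle cords. It overlaps 223 exon bases of Tgtp1.

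**Figure D5:**
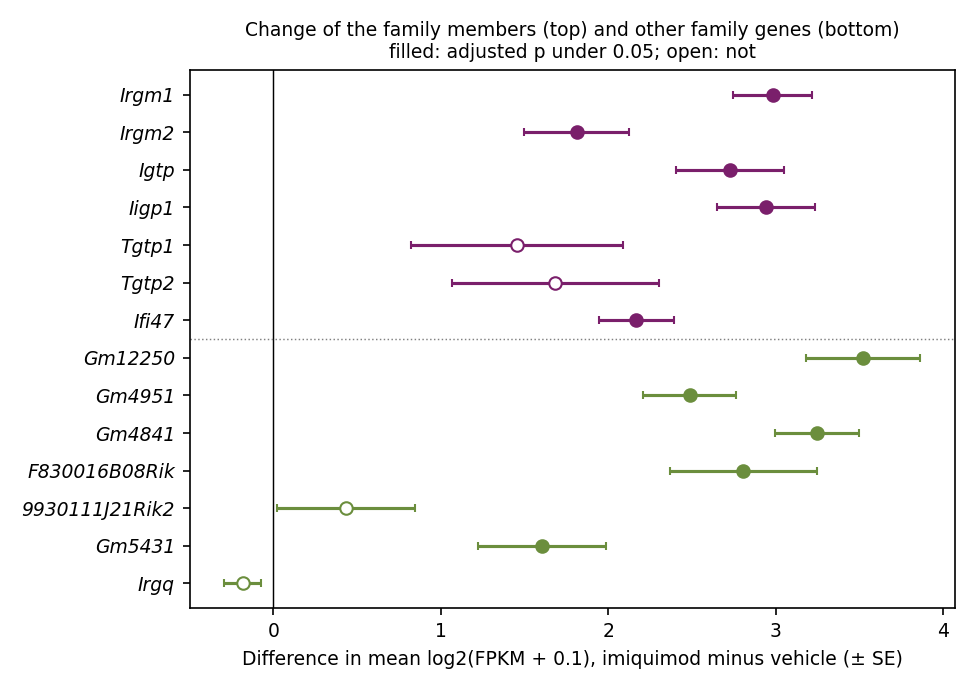
Difference in mean log2(FPKM + 0.1) between imiquimod and vehicle cords, ± SE, for the 7 members (purple) and the 7 other family genes tested (green). Filled points passed at an adjusted p under 0.05, with Gm12250 at 3.52, Irgm1 at 2.98 and Irgq at -0.18.

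Upstream of the family, the interferon genes themselves were near 0. Ifng, the main known inducer, had 1 recovered fragment in each imiquimod library and 0, 0 and 1 in vehicle libraries. Ifnb1 had 3, 2 and 0 fragments in imiquimod and 0 in each vehicle library. All are at or under a floor of 3 fragments per library, so no fold is given, and 7 of 11 interferon genes were listed at 0 in every library. Transcripts of the signalling chain were measurable. Of 21 tested receptor, JAK-STAT and regulatory genes, 12 were higher and 0 lower, with a median log2 change of 1.19. Ifngr1, a chain of the interferon gamma receptor, was at 10.5, 9.08 and 11.3 FPKM in imiquimod and at 6.81, 7.56 and 8.44 FPKM in vehicle cords (0.43 ± 0.11, limma adjusted p = 0.0468). That call ended when any library other than imiquimod replicate 2 was left out (adjusted p from 0.0652 to 0.155), and with no filter, TPM scaling, quality weights or the replicate block (from 0.0532 to 0.083). Ifngr2 (0.07 ± 0.08) did not pass.

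Irf8, a transcription factor of myeloid cells (1.82 ± 0.09), Ptpn6, a phosphatase of haematopoietic cells (2.17 ± 0.17), and Irf7 (4.49 ± 0.56), an amplifier of type I interferon production, rose among the signalling and regulatory genes. Irf1, the interferon gamma-induced activator of ISRE elements, was at 5.57, 2.41 and 5.30 FPKM in imiquimod and at 2.05, 1.79 and 1.51 FPKM in vehicle cords (1.19 ± 0.31, limma adjusted p = 0.0491). The call on Irf1 likewise ended when any library other than imiquimod replicate 2 was left out (adjusted p from 0.112 to 0.146), and with either other pseudocount, no filter, voom or the replicate block (from 0.0504 to 0.0948). As in the members, imiquimod replicate 2 was its lowest imiquimod library.

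Of 14 genes known mainly from type I interferon, 14 were higher (Mx1 having passed the filter through the imiquimod libraries alone), with a median log2 change of 3.49. Ifit2 (3.68 ± 0.21), Isg15 (4.08 ± 0.32), Ifi44 (4.56 ± 0.37) and Cmpk2 (1.97 ± 0.16) had the smallest p. Of 11 genes known mainly from interferon gamma 8 were tested, 3 were higher and 0 lower. Of the 3, Cxcl9 and Ubd passed the filter through the imiquimod libraries alone. Cxcl9, a T cell chemokine, was at 29.8, 9.24 and 22.2 FPKM in imiquimod and at 0.393, 0.572 and 0.237 FPKM in vehicle cords (5.25 ± 0.45, limma adjusted p = 0.00129), and Cd274, which encodes PD-L1, rose by 2.33 ± 0.20. Ubd, a ubiquitin-like modifier listed at 0 in vehicle replicates 1 and 3, rose by 2.63 ± 0.65 (limma adjusted p = 0.041), a call that ended (adjusted p from 0.0775 to 0.163) when any library other than imiquimod replicate 2 was left out, and with a pseudocount of 1 (0.0605) or 0.01 (0.0534) or the replicate block (0.103). The MHC class II genes H2-Aa (-0.31 ± 0.38), H2-Ab1 (-0.02 ± 0.35) and H2-Eb1 (-0.35 ± 0.36) did not pass, and their regulator Ciita was under the filter.

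Genes of proteins that work with the family on vacuoles were examined next. Guanylate-binding proteins, a second family of interferon-induced GTPases that joins the immunity-related GTPases on vacuoles, were higher for 8 of 9 tested and 11 listed genes. Of the 8, Gbp6, Gbp10 and Gbp11 passed the filter through the imiquimod libraries alone. Gbp9 (1.71 ± 0.14), Gbp6 (2.83 ± 0.25), Gbp2 (2.48 ± 0.26) and Gbp3 (3.08 ± 0.34) had the smallest p, and Gbp4 (1.48 ± 0.40, limma adjusted p = 0.053) did not pass, though it did without imiquimod replicate 2 (0.0279) or vehicle replicate 2 (0.0272). The ATG8 conjugation machinery, which the effectors need to find vacuoles, and the ubiquitin factors recruited with them had 2 of 16 genes higher and 0 lower, with a median of -0.004. The 2 were Trim21, an interferon-induced ubiquitin ligase, at 9.26, 5.25 and 6.95 FPKM in imiquimod and 1.26, 1.94 and 1.25 FPKM in vehicle cords (2.19 ± 0.24, limma adjusted p = 0.00314), and Sqstm1, the ubiquitin-binding adaptor p62, at 177, 166 and 163 FPKM in imiquimod and 125, 123.1 and 126 FPKM in vehicle cords (0.43 ± 0.06, limma adjusted p = 0.00721). Atg5 (0.01 ± 0.14), Atg7 (-0.06 ± 0.08), Atg3 (0.01 ± 0.07) and Atg16l1 (-0.04 ± 0.07) of the conjugation system did not pass.

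Genes whose level moved most like each member over the 6 libraries were found by the root mean square distance between log2 profiles, each centred on its own mean. This is a description over 6 libraries that also share their treatments. Nearest to Irgm1 were Dhx58 (0.10), Herc6 (0.13) and Tspo (0.13), where the median distance of all genes tested was 1.54. Nearest to Irgm2 were Mov10, Parp9 and Stat2 (0.16 each). Nearest to Igtp were Isg20 (0.12), Iigp1 (0.16) and Tap1 (0.20), and nearest to Iigp1 were Rsad2 (0.13), Irgm1 (0.15) and Igtp (0.16). Ifi47 lay nearest to Casp4 (0.08), Apobec1 (0.15) and Rac2 (0.15). The nearest genes were farther away for Tgtp1, with Lrg1 (0.27), Il1r2 (0.32) and Coch (0.33), and for Tgtp2, with Ccl8 (0.175), Mid1-ps1 (0.37) and Gimap9 (0.42), and neither copy was among the 3 nearest of the other.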

How the data were processed

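Gene expression was measured by RNA sequencing in 3 imiquimod and 3 vehicle samples, with 1 library each. The authors deposited 1 FPKM value per Ensembl gene and library. HISAT2 2.0.5, featureCounts 1.5.0-p3, DESeq2 1.16.1 and mm10 are named in the submitters' processing notes, without roles or order. Annotation, strand setting and treatment of multi-mapping reads were not stated in the sources at hand. Symbols were found for 54409 identifiers. Exon lengths and coordinates came from GENCODE M21, and 54495 identifiers had one.

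Each library has a step, worth 1 fragment, that FPKM times exon length hits at whole multiples; this held for 97.4% to 97.6% of values under 1000 fragments (within 0.05), which gave fragment counts. The steps matched median-of-ratios size factors within 0.0265%, so no further scaling was applied.

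The test was limma 3.58.1 in R 4.3.3, with the trend option, on log2(FPKM + 0.1), which understates changes of low genes, on genes with a mean of 0.5 FPKM in either group. It was run on simulated counts with the same spread in both groups. Quality weights here were 0.454 to 0.835 in imiquimod and 1.51 to 1.61 in vehicle libraries. That run therefore cannot show how the test does at the spread of these libraries. Fold changes are imiquimod minus vehicle. Other steps used Python 3.11.15 with SciPy 1.17.1, NumPy 2.4.6, pandas 2.3.3 and matplotlib 3.10.9. Members and lists were chosen with earlier results of these data known, so no list was tested. Named were all members, the other family genes, up to 4 called genes per list and direction with the smallest p, and the 3 nearest profiles per member; other list members are given as examples, chosen after their values were seen. 1 gene that the rule names is not reported here. Motifs of the nucleotide-binding loop were searched in coding DNA, not in a protein table as first planned.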

Additional observations from a re-analysis of the deposited data

How the results depend on the processing

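With pseudocounts of 1 and 0.01, no filter, a minimum of 1 FPKM, median-of-ratios or TPM scaling, quality weights, voom on recovered fragments and the replicate block, the count of members called stayed at 5. It ran from 4 to 6 when 1 library was left out, with Irgm2 lost without vehicle replicate 1 or 3 and Tgtp1 gained without imiquimod replicate 2. Irgm1, Igtp, Iigp1 and Ifi47 passed under all of these and without any one library (adjusted p from 2.13e-04 to 0.0192). No member changed sign. Taken as 1 feature, the summed Tgtp1 and Tgtp2 changed by 1.63 ± 0.58 and did not pass (limma adjusted p = 0.112). Over all genes, 2326 calls (1444 higher, 62.1%) became 847 to 2986 when 1 library was left out, namely 1552 without imiquimod replicate 1, 2986 without imiquimod replicate 2, 1260 without imiquimod replicate 3, and 847, 1022 and 1010 (75.1% to 77.9% higher) without vehicle replicate 1, 2 and 3. The cause was not tested. The replicate block gave 1330 calls and ended those on Gm5431, Ubd, Ifngr1, Irf1, Ncr1, Plac8 and Mrc1. Whether equal numbers pair the samples is not known. Deviations of same-numbered libraries from their group means correlated at 0.02, -0.10 and -0.03 across genes, and not every library correlated best with its own number. As the deviations of the 3 libraries of a group sum to 0, these correlations cannot settle it. Of genes that did not pass, with quality weights Atg5 changed sign to -0.0179 and Atg3 to -0.00274; leaving out 1 library, Atg5 ran from -0.13 to 0.11, Atg3 from -0.0331 to 0.0578, H2-Aa from -0.58 to 0.15, H2-Ab1 from -0.32 to 0.40 and H2-Eb1 from -0.69 to 0.0841 on the log2 scale. Depth limits Tgtp1, with 23 to 58 fragments per vehicle library, and the interferon genes. Groups of 3 samples limit every ratio test to an exact p of 0.1.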
